A study of Mus musculus with 6 samples.

Results

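The polyamine metabolism genes described here are 10 named genes, Odc1, Amd1, Amd2, Srm, Sms, Sat1, Smox, Oaz1, Oaz2 and Azin1, out of 14619 genes listed in the gene table, and each of the 10 had 1 row there. The set was chosen by measured values of these libraries, the fall of Amd2 and the shift in the isoforms of Smox between the groups. The values of Amd2 and Smox are therefore a description with no test, and the other 8 were added for their role in the pathway. RNA was sequenced from tibialis anterior, a mostly fast-twitch muscle at the front of the shin. The knockout group, HSA-Cre Tg/+; Acin1 F/F, had 3 libraries (replicates 5, 7 and 8), and the control group, HSA-Cre Tg/+; Acin1 +/+, also had 3 (replicates 1, 2 and 3). All mice of both groups thus carried the HSA-Cre transgene, in which the human skeletal actin promoter drives Cre in muscle fibres, so that endothelial, connective tissue, immune and other cells of the muscle keep Acin1. The protein product of Acin1 is acinus, which sits in the nucleus, binds RNA and takes part in splicing. The labels give neither age nor sex, nor do they say that the libraries are from different animals, so the p-values reflect spread among these libraries that may be technical.

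The polyamines putrescine, spermidine and spermine are small positively charged molecules that bind RNA and are needed for growth and translation. Odc1, ornithine decarboxylase, makes putrescine; Amd1 and its copy Amd2, S-adenosylmethionine decarboxylases, supply the aminopropyl groups that Srm (spermidine synthase) and Sms (spermine synthase) add. Sat1, spermidine/spermine acetyltransferase, and Smox, spermine oxidase, run the pathway backwards, and the antizymes Oaz1 and Oaz2 bind Odc1 and send it to the proteasome, while the inhibitor Azin1 binds the antizymes. In skeletal muscle the pathway is known to respond to androgens and to disuse, and Smox is known as a gene that falls in atrophying muscle.

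The libraries held 26968597, 29301125 and 27825425 reads in listed genes in knockout replicates 5, 7 and 8, and 27190731, 25777196 and 21084522 in control replicates 1, 2 and 3. Values below are scaled reads, that is, reads of a gene after division by the size factor that the authors used for the library. Acin1 itself had 1196, 1196 and 1195 scaled reads in knockout muscle, against 1513, 1559 and 1413 in control muscle (log2 change -0.32, limma adjusted p = 0.0266), in whole tissue that includes cells without Cre. In bulk tissue, fewer cells of a type and less RNA per cell cannot be told apart. All 8 defining markers of skeletal fibres were measured, and their summed scaled reads were 2515383 to 3018623 in knockout and 2826429 to 3033267 in control libraries. Markers of other cells differed between the groups: 4 of 8 endothelial markers fell (summed scaled reads 7336 to 9436 in knockout, against 10402 to 11687 in control libraries), as did 2 of 5 smooth muscle and pericyte markers (8740 to 10825 in knockout, against 12630 to 13472 in control) and 2 of 5 Schwann cell markers (882.6 to 1017 in knockout, against 1224 to 1756 in control). Of the measured markers of macrophages (10), fibroadipogenic cells (6), adipocytes (3), erythroid cells (5) and lymphocytes (1), none passed with limma. At an unadjusted p under 0.05 (limma) there were 2, 0, 1, 5 and 0 of them. Of 5 satellite cell and myoblast markers, 1 rose. The part of these cells in the results below was not tested. A gene was called where limma's adjusted p, over all 14619 genes, was under 0.05, and the median log2 change of all genes was -0.0072. By that rule 11.3% of all genes were called, 5.74% as risen and 5.51% as fallen. Of the 8 polyamine genes that did not choose the set, 1 rose (Oaz1), 1 fell (Amd1) and 6 did not pass, with a median log2 change of 0.14. Amd1 shares most of its sequence with Amd2, whose fall chose the set, so the call of Amd1 may not be independent of that choice. The groups did not overlap for 3 of these 8 genes, Amd1, Oaz1 and Oaz2, where 35.4% of all genes showed no overlap.

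**Figure D1:**
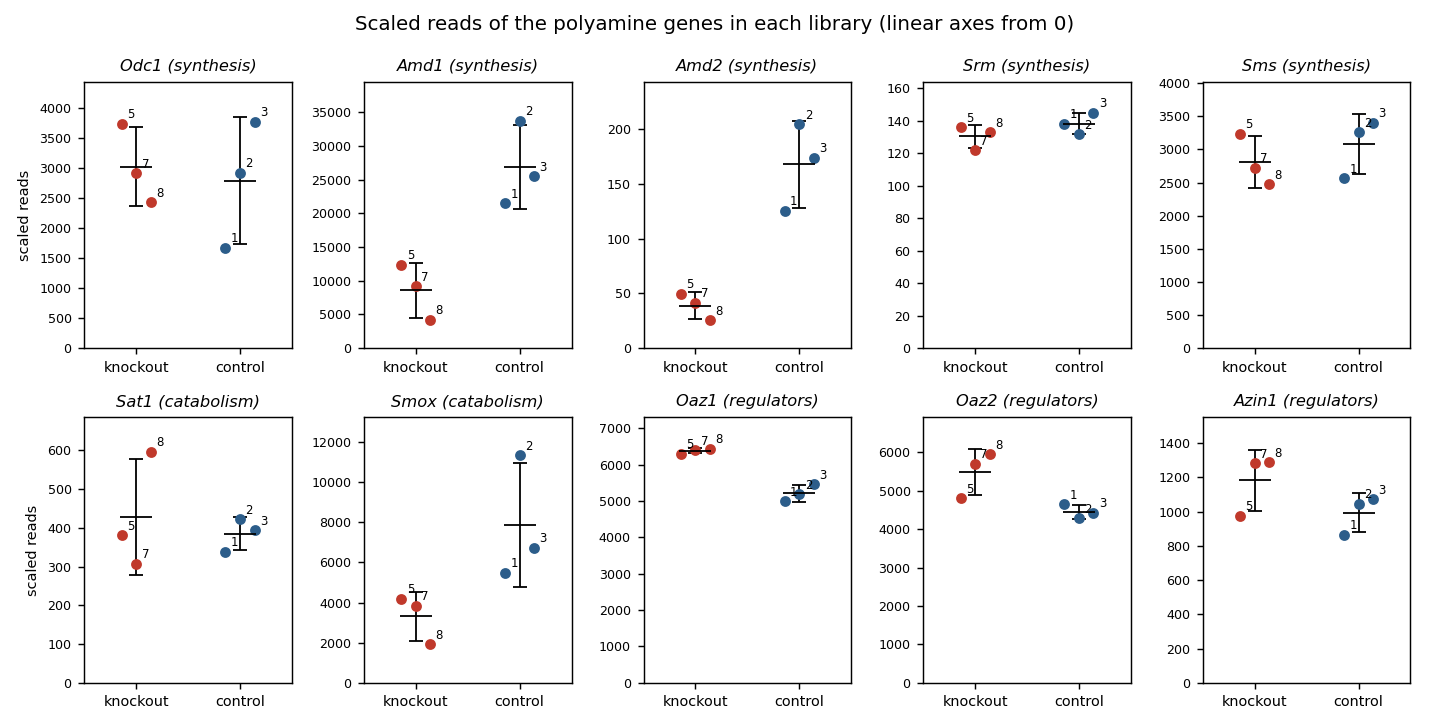
Scaled reads (vertical axes, linear, each from 0) of the 10 polyamine genes in 3 knockout libraries (left, red) and 3 control libraries (right, blue), numbered by replicate; black bars are the mean ± SD. For Amd1, Amd2 and Smox every knockout point lies below every control point, while Oaz1 and Oaz2 lie higher in every knockout library than in any control library.

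Among the synthesis genes, Amd1 fell in knockout muscle. It had 12392, 9182 and 4243 scaled reads in knockout replicates 5, 7 and 8, against 21549, 33769 and 25556 in control replicates 1, 2 and 3. Every knockout library lay below every control library, and knockout replicate 8 was the lowest of all. The means were 8606 ± 4105 in knockout and 26958 ± 6229 in control libraries (SD, n = 3 each), so that 31.9% of the control level was left. The log2 change was -1.76 (SE 0.346, 95% interval -2.54 to -0.97, limma adjusted p = 0.0188). Leaving out control replicate 1, 2 or 3 ended the call, at adjusted p = 0.0549, 0.0671 and 0.0637 (limma) and log2 changes between -1.90 and -1.58, and so did robust variance estimation (0.0790) or a fit with no mean-variance trend (0.0638). The authors' deposited table gave Amd1 a log2 change of -1.65 with an adjusted p of 0.0039. Per kilobase of annotated exon, a scale that allows levels of different genes to be set side by side, Amd1 was the highest of the 10 genes in control muscle, at 7611 scaled reads per kilobase. In knockout muscle its 2430 per kilobase (range 1198 to 3499) overlapped the 2493 per kilobase of Oaz1 (2463 to 2517).

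Reads across splice junctions were listed for Amd1 and not for Amd2, which has a single exon. The joined sequence can also be present in Amd2, so these reads are not specific to Amd1 by sequence. The rMATS tables head their columns sample 1 and sample 2; these were read as control and knockout, since their junction counts equalled those of the named CASH columns in that order far more often. For a junction pair inside the coding exons, the 3 knockout entries held 429, 439 and 187 reads, against 953, 1232 and 812 in the 3 control entries. All knockout entries lay below all control entries. In RPM, here the reads for every 1000000 reads in listed genes, that was 12.5 in knockout and 40.5 in control, or 31% of the control level. A spliced junction of another event, counted for an intron, held 453, 397 and 181 reads in knockout and 820, 1215 and 822 in control, 31.8% of the control level on the same scale. Both junction values lie beside the 31.9% from all reads of the gene.

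Amd1 and Amd2 are printed together because their near identity bears on every value of Amd2 given here. In the GENCODE M21 transcripts (build GRCm38), both genes lie on chromosome 10, Amd1 with 8 exons in its longest model and Amd2 with 1 exon. Their coding sequences, 1002 bases each, differed at 1 base, G796C (the base of Amd1, its position from the first base of the start codon, the base of Amd2). The coding bases from 766 to 825 are shown with that base in capitals.
Amd1: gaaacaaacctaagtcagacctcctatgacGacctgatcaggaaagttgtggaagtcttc
Amd2: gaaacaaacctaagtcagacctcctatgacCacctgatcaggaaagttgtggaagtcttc
Over the whole transcript 14 of 3204 aligned bases differed (99.56% identity), and of the 3119 windows of 100 bases in Amd2, 2273 (72.9%) were also in Amd1. A read from such a window cannot be assigned to either gene by its sequence, and how the authors' counting split such reads is not given in the sources used here.

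Amd2 (ENSMUSG00000063953), whose fall chose the set, had few reads. It had 49.5, 41.3 and 25.7 scaled reads in knockout replicates 5, 7 and 8, against 125.3, 204.1 and 173.8 in control replicates 1, 2 and 3, which rest on 48, 47 and 29 reads in knockout and 136, 195 and 139 reads in control libraries. The groups did not overlap, and the mean was 38.8 ± 12.1 in knockout and 167.7 ± 39.8 in control libraries (SD, n = 3 each), 23.2% of the control level, at a log2 change of -2.02. In the sum of Amd1 (ENSMUSG00000075232), Amd2 and the copy Amd-ps3, Amd2 took 0.396%, 0.446% and 0.601% of the scaled reads in knockout replicates 5, 7 and 8, against 0.576%, 0.598% and 0.673% in control replicates 1, 2 and 3. These shares overlapped between the groups. The summed level was 8678 ± 4139 in knockout and 27236 ± 6297 in control libraries (SD, n = 3 each), 31.9% of control, a sum made up almost wholly of Amd1. What part of the reads listed under Amd2 came from Amd1 was not tested.

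Amd-ps3, a pseudogene copy on chromosome 18, was listed separately and 89% of its windows of 100 bases were also in Amd1. It had 53.6, 36.0 and 8.87 scaled reads in knockout replicates 5, 7 and 8, against 82.0, 141.3 and 106.3 in control replicates 1, 2 and 3. The groups did not overlap, and it fell with a log2 change of -1.85 (SE 0.493, limma adjusted p = 0.0469). Leaving out knockout replicate 7 (limma adjusted p = 0.0837) or control replicate 1, 2 or 3 (0.103, 0.139 and 0.123) ended that call, as did a smaller added constant, robust variance estimation or a fit with no trend (0.0545 to 0.108). All 3 copies thus had lower values in each knockout library than in each control library, and the values of Amd2 and Amd-ps3 are uncertain for the shared sequence given above.

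The other synthesis genes did not pass the test. Odc1 had 3734, 2910 and 2426 scaled reads in knockout replicates 5, 7 and 8, against 1670, 2918 and 3770 in control replicates 1, 2 and 3. The ranges overlapped almost completely, and the log2 change was 0.17 (95% interval -0.45 to 0.80, limma adjusted p = 0.713); without control replicate 1 it turned to -0.16. Sms had 3237, 2725 and 2477 scaled reads in knockout, against 2563, 3263 and 3407 in control libraries (log2 change -0.13, 95% interval -0.43 to 0.17, limma adjusted p = 0.562). Srm had 136.1, 122.1 and 133.1 scaled reads in knockout, against 138.2, 131.9 and 145.1 in control libraries (log2 change -0.08, 95% interval -0.36 to 0.19, limma adjusted p = 0.686). The lower bounds of these 3 intervals all lie above the log2 change of -1.76 of Amd1.

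Smox (ENSMUSG00000027333), the oxidase that turns spermine back into spermidine, had its highest knockout value below its lowest control value. It had 4199, 3847 and 1917 scaled reads in knockout replicates 5, 7 and 8, against 5489, 11349 and 6735 in control replicates 1, 2 and 3. Control replicate 2 stood well above the other controls. The mean was 3321 ± 1229 in knockout and 7858 ± 3087 in control libraries (SD, n = 3 each), 42.3% of the control level, at a log2 change of -1.25 (SE 0.329). The set was chosen for the isoform shift of Smox, so this fall at the gene level is given as a description and is not tested here.

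The isoform shift of Smox concerned its first exons. CASH, a splicing caller, gave 6 starts upstream of the same second exon (GRCm39, chr2:131353904-131354137, 234 bases), with reads summed over libraries into a knockout and a control column. The knockout column matched the reads of the first 2 of the 3 knockout entries of rMATS better than those of all 3. Levels are therefore given in RPM, here for every 1000000 of the 27077335 knockout and 34677717 control junction reads in that table. Their 95% exact Poisson intervals cover counting error only. RPM does not make up for a library left out. The third entry had the lowest inclusion of the Smox exon of 227 bases described below (76.4%, against 92.2% and 90.2%). The start farthest upstream (chr2:131333843-131333956, 19947 bases before the second exon) had 307 reads in knockout and 374 in control, or 11.3 RPM (10.1 to 12.7) in knockout and 10.8 RPM (9.72 to 11.9) in control. These intervals overlapped. The next start (chr2:131348881-131348961, 4942 bases before the second exon) had 185 reads in knockout and 840 in control, or 6.83 RPM (5.88 to 7.89) in knockout and 24.2 RPM (22.6 to 25.9) in control, 3.55-fold higher in control. The event that sets this start against its alternative counted 281 reads for the alternative in knockout and 370 in control. These were 10.4 RPM (9.2 to 11.7) in knockout and 10.7 RPM (9.61 to 11.8) in control. They are fewer than the 307 and 374 reads of the farthest upstream start, so some of its reads may not join the second exon. Reads that join that start to a later exon, described below, were 10, 14 and 21 in the knockout entries of rMATS and 0, 1 and 1 in the control entries. In the event of the start at 4942 bases, the share of reads from that start was 39.7% (95% exact binomial interval 35.2 to 44.3) in knockout, against 69.4% (66.7 to 72.0) in control. The authors' deposited table gave the event an FDR of 0.000894. The event belongs to the choice of the set, so its FDR and its place among other events are a description. It was 1 of 2 among 11719 alternative starts in that table with an FDR under 0.05, the other being in Mtus1, while 0.0465% of all 60273 CASH events passed.

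The lesser starts of Smox had lower levels in the knockout column as well. In the authors' deposited table none of their events had an FDR under 0.05 (lowest 0.999), so these levels are a description. The start 489 bases before the second exon (chr2:131353334-131353414) had 12 reads in knockout and 132 in control, or 0.443 RPM (0.229 to 0.774) in knockout and 3.81 RPM (3.18 to 4.51) in control. The remaining 3, at 4222, 403 and 247 bases, had 2, 1 and 0 reads in knockout and 17, 29 and 12 in control; the 0 reads are 0 RPM with an upper bound of 0.136 RPM. Summed over the 6 starts, there were 507 reads in knockout and 1404 in control, or 18.7 RPM in knockout and 40.5 RPM in control. Reads that leave out the second exon may be among those of the farthest upstream start, and so in these sums. That start took 60.6% (56.1 to 64.8) of the summed reads in knockout and 26.6% (24.3 to 29.0) in control. Leaving it out, 200 reads in knockout and 1030 in control remained, so the gap between the columns lay in the starts nearer to the second exon. Those 5 starts were all listed with a length of 81 bases. A start inside Smox (chr2:131359577-131359657) and a start of Sms (chrX:156274288-156274368) were listed with that length too. It thus need not be the true length of these first exons.

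**Figure D2:**
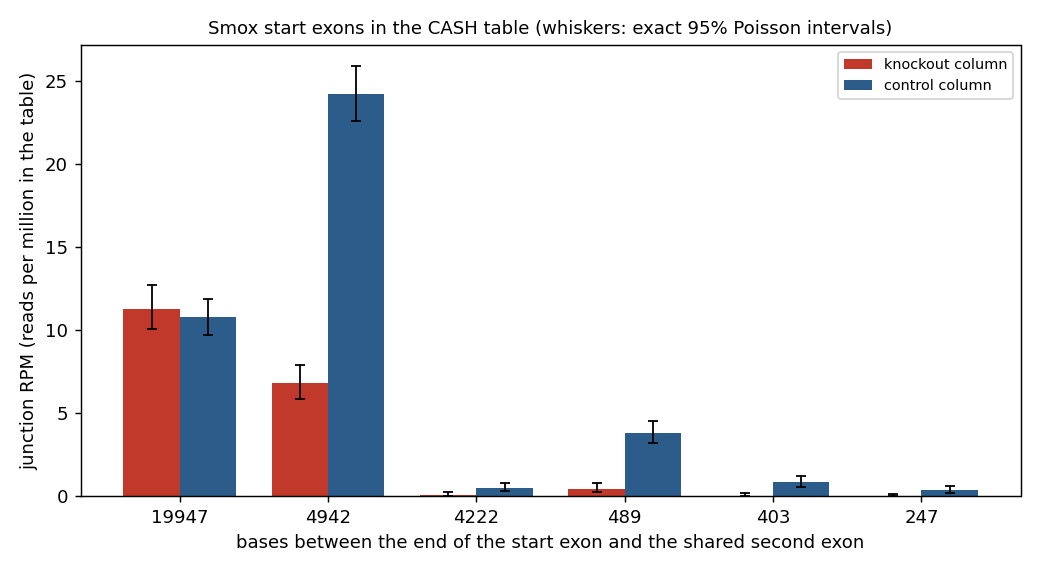
Junction RPM in the CASH table (vertical axis) for 6 start exons of Smox, ordered along the horizontal axis by the bases between each start exon and the shared second exon; red bars are the knockout column, blue bars the control column, and whiskers the exact 95% Poisson intervals. The start at 19947 bases has 11.3 RPM in knockout and 10.8 in control, whereas the start at 4942 bases has 6.83 in knockout and 24.2 in control.

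The promoters of the genes with the lower levels are shown next, since Amd1 and Amd2 differ in their upstream sequence, and since the printed window of Smox is that of its farthest upstream start, the start with overlapping intervals. The windows of the nearer starts are not shown. RefSeq windows (GRCm38.p6, 250 bases before to 50 after the start) were matched for 8 of the 10 genes. Capitals in Amd1 (chr10:40302139-40302438, minus strand) and Amd2 (chr10:35711842-35712141, minus strand) mark the longest run shared by both windows, 48 bases, which begins at transcribed base 3 in Amd1 and at transcribed base 1 in Amd2. Capitals in Smox (chr2:131491612-131491911, plus strand) mark GGGCGG, the core of the GC box, or its reverse complement CCGCCC.
Amd1: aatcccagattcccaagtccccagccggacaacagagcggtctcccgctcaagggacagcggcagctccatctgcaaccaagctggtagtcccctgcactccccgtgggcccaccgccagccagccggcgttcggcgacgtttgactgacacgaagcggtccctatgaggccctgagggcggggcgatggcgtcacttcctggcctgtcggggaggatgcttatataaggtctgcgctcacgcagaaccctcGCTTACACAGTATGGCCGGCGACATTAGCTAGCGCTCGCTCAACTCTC
Amd2: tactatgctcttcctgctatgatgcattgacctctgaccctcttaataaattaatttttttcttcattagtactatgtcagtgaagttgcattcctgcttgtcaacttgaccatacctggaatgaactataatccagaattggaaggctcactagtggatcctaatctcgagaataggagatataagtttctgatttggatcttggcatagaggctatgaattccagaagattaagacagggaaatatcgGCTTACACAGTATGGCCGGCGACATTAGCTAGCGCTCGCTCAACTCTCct
Smox: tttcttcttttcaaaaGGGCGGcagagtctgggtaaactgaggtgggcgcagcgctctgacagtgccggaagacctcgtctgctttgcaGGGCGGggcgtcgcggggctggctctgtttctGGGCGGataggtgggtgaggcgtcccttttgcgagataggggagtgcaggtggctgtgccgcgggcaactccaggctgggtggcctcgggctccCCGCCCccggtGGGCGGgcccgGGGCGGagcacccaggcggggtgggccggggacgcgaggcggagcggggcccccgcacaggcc
Upstream of the start, 25.6% of the 250 positions held the same base in Amd1 and Amd2, compared position by position without alignment. The shared run begins at base 3 in Amd1 and at base 1 in Amd2, so the windows are out of register. This share therefore cannot measure how alike the upstream sequences are. The window of Smox held 6 matches to GGGCGG on either strand and that of Amd1 held 1 (position -74), whereas that of Amd2 held 0; 35.9% of 32544 promoter windows held at least 1. GC content was 63% in Amd1, 40.7% in Amd2 and 71% in Smox, beside a median of 53% over all windows. On both strands, CACGTG (in 7.17% of all windows), TATAAA (13.6%) and AGAACA (18.9%) had no match in these 3 windows; CCAAT (37.4%) matched in Amd2 at position -112, and CANNTG (72.3%, which includes CACGTG) in Amd1 at -182 and in Smox at -83. These matches describe letters and are not known binding sites. Only the exact letters were searched, so a close variant, such as tatataa in the Amd1 window, was not counted.

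The farthest upstream start matches an annotated first exon in its distance to the second exon, with no coordinate converted between builds. In GENCODE M21 (GRCm38), 12 of 17 transcript models of Smox have a first exon that ends 19947 bases before the second exon, as in the deposited coordinates, and none ends at 4942 bases; the nearest annotated first exon on that side ends at 2937 bases. The RefSeq start whose promoter is printed above lies inside the first exon of the model Smox-201, which is such a first exon. The second exon of 234 bases holds the start codon in the model Smox-202, so the starts listed above differ in sequence ahead of the start codon. The next exon of that model has 227 bases.

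A second difference in Smox lay at that exon of 227 bases (GRCm39, chr2:131358137-131358363). The rMATS event with it counted reads that joined the farthest upstream first exon straight to the exon that begins at 131362015, which leaves out both the exon of 234 bases with the start codon and that of 227 bases. There were 10, 14 and 21 such reads in the 3 knockout entries, against 0, 1 and 1 in the 3 control entries. Reads for inclusion were 236, 257 and 136 in knockout and 356, 624 and 334 in control, and they hold the junction to the following exon, which transcripts from every start share. Inclusion was 92.2%, 90.2% and 76.4% in knockout, against 100%, 99.7% and 99.4% in control. The groups did not overlap, and the authors' deposited table gave an FDR of 0, which is its smallest printed value. Like the start event, it belongs to the isoform shift for which the set was chosen, so these values are a description. Of the 22 rMATS events of Smox with a mean of at least 20 junction reads per library, 1 had an FDR under 0.05, and over all genes 3.44% of 18626 such events did.

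Splicing further down Smox differed by under 3 percentage points between the CASH columns. The exon at chr2:131364068-131364139 had 97.0% inclusion in knockout and 96.0% in control, and the exon at chr2:131366164-131366253 had 14.2% (95% exact binomial interval 12.3 to 16.2) in knockout and 16.7% in control. The exon at chr2:131362015-131362202 was included in 100% of reads in both columns, and that at chr2:131362975-131363091 in 98.5% in knockout and 99.5% in control. An acceptor site at chr2:131358118-131358140 had 0 of 17 reads in knockout and 1 of 38 in control. The intron at chr2:131362188-131362332 was retained in 9.38% of reads in knockout and 9.59% in control. A start inside the gene (chr2:131359577-131359657) had 3 reads in knockout and 9 in control.

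Sat1, the enzyme that marks polyamines for export or breakdown by acetylation, did not pass the test. It had 380.6, 307.5 and 596.1 scaled reads in knockout replicates 5, 7 and 8, against 338.1, 421.8 and 394.0 in control replicates 1, 2 and 3 (log2 change 0.10, 95% interval -0.39 to 0.59, limma adjusted p = 0.790). Knockout replicate 8 lay above all others and the remaining knockout libraries lay within or below the control range; without it the log2 change was -0.16. The summed scaled reads of 10 macrophage markers were 960.2, 1398 and 3166 in knockout replicates 5, 7 and 8, against 1659, 1345 and 1164 in control replicates 1, 2 and 3, and so were also highest in knockout replicate 8. The 5 satellite cell and myoblast markers (sum 1254, at most 692.9 in control libraries) were highest in knockout replicate 8 too. So was the 1 measured lymphocyte marker (87.8, at most 31.3 in control libraries). The remaining marker lists were not highest there. The part of these cells in the value of Sat1 was not tested. A Sat1 exon of 110 bases (GRCm39, chrX:153998117-153998226) was included in 42.2%, 28.9% and 31.3% of rMATS reads in knockout, against 32.0%, 23.4% and 13.7% in control, with a deposited FDR of 0.782.

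Of the 3 regulators of ornithine decarboxylase, Oaz1 rose and Oaz2 and Azin1 did not pass. Oaz1 had 6299, 6395 and 6440 scaled reads in knockout replicates 5, 7 and 8, against 5000, 5179 and 5459 in control replicates 1, 2 and 3. Every knockout library lay above every control library, and the mean was 6378 ± 71.7 in knockout and 5213 ± 231.3 in control libraries (SD, n = 3 each), 122.3% of the control level. It rose with a log2 change of 0.29 (SE 0.0692, 95% interval 0.13 to 0.45, limma adjusted p = 0.0322). Leaving out knockout replicate 7 ended the call (limma adjusted p = 0.101), as did leaving out control replicate 1, 2 or 3 (0.101, 0.104 and 0.0721) or the mean-variance trend (0.0947), while the log2 change stayed between 0.26 and 0.33. In the annotation 74 exon bases of Oaz1 are shared with Mir1982 on the same strand.

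Oaz2, the second antizyme, had 4801, 5704 and 5946 scaled reads in knockout, against 4653, 4291 and 4434 in control libraries. The groups did not overlap, and the log2 change of 0.29 (SE 0.0933, 95% interval 0.08 to 0.51) did not pass (limma adjusted p = 0.0771), although it did without knockout replicate 5 (0.0236). The authors' deposited table gave Oaz2 a log2 change of 0.30 with an adjusted p of 0.0445, and Oaz1 0.29 with 0.0096. Azin1, which frees Odc1 from the antizymes, had 976.7, 1281 and 1289 scaled reads in knockout, against 864.1, 1045 and 1073 in control libraries (log2 change 0.24, 95% interval -0.05 to 0.54, limma adjusted p = 0.251). Its groups overlapped, and 358 exon bases of Azin1 lie opposite Gm49077, whose reads cannot be told apart if counting ignored the strand.

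**Figure D3:**
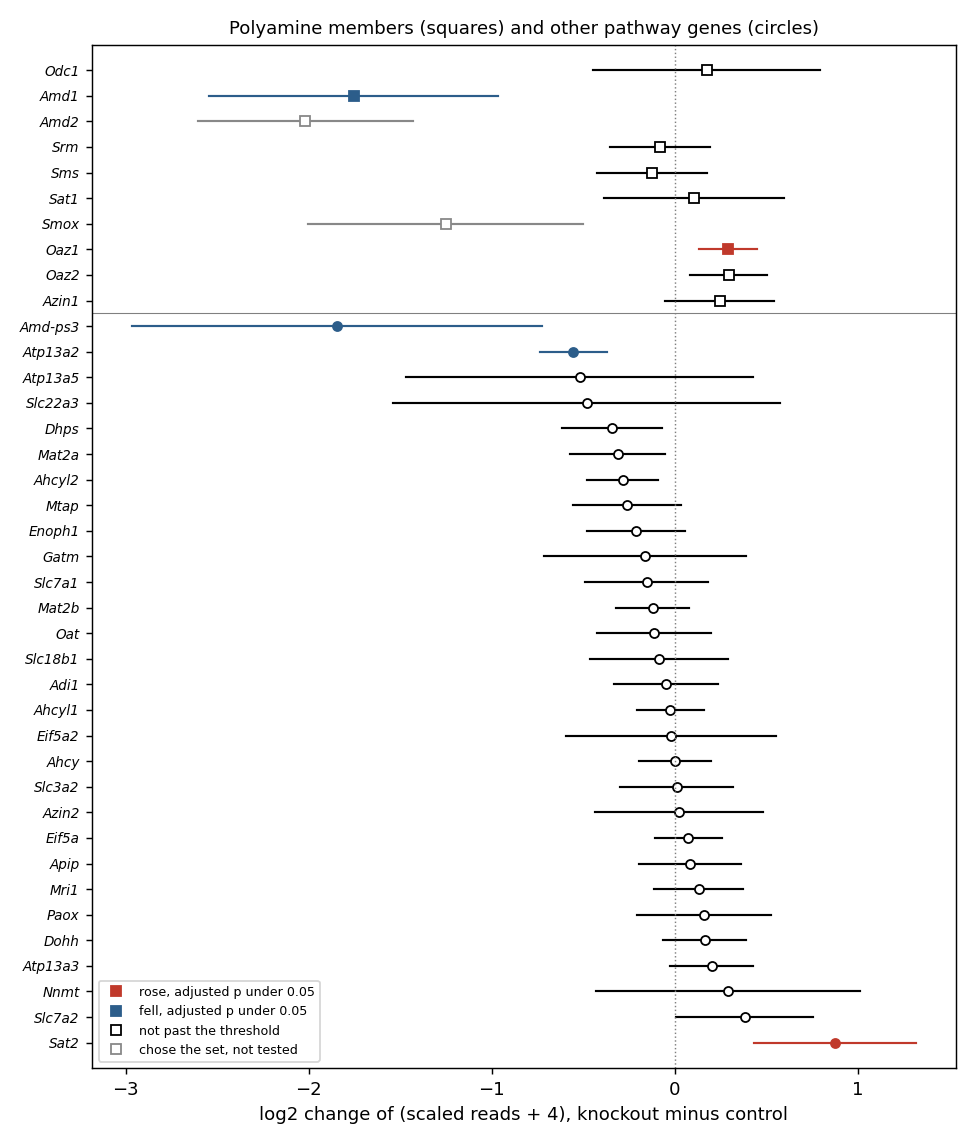
Log2 change of scaled reads with 4 added, knockout minus control (horizontal axis), with 95% intervals from limma, for the 10 polyamine genes (squares) and 29 other pathway genes (circles). Amd1, Amd-ps3 and Atp13a2 fell (filled blue) and Oaz1 and Sat2 rose (filled red); Amd2 and Smox (grey) chose the set and were not tested.

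The order of the libraries differed among the members, and Amd1, Amd2 and Smox had the same order in both groups. They were each highest in knockout replicate 5, then 7, then 8, and in control replicate 2, then 3, then 1. Odc1 and Sms had the same order in knockout muscle and ran 3, 2, 1 in control muscle, and Srm and Sat1 followed other orders in knockout muscle. The highest knockout library exceeded the lowest 2.92-fold for Amd1, 1.92-fold for Amd2 and 2.19-fold for Smox, and the highest control library exceeded the lowest 1.57-fold, 1.63-fold and 2.07-fold for these genes. Amd1 and Amd2 share most of their sequence, so their like order may rest on the same transcripts, which was not tested. Oaz1, Oaz2 and Azin1 had the opposite order in knockout muscle, 8 above 7 above 5, and for Oaz1 the ratio of highest to lowest was only 1.02 in knockout and 1.09 in control libraries. The summed fibre markers, 3018623, 2722247 and 2515383 in knockout replicates 5, 7 and 8 and 2826429, 3033267 and 2836656 in control replicates 1, 2 and 3, had the same order as Amd1, Amd2 and Smox in both groups, over a narrower range. The summed erythroid markers, 6544, 4336 and 3400 in knockout and 10061, 22504 and 5991 in control libraries, were also highest in control replicate 2, and 5 of 5 had an unadjusted p under 0.05 with 0 called (limma). The part of either in these results was not tested.

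By root-mean-square difference of log2 values, each gene taken relative to its own control mean over the 6 libraries, the nearest of 10943 genes to Amd2 were Lrp2bp (0.219), Rmi2 (0.219) and Amd1 (0.287). Those nearest to Smox were Kcng4, a voltage-gated potassium channel subunit (0.235), 2310016D03Rik (0.266) and Gm15543 (0.284). Kcng4 had 848.8, 707.3 and 313.1 scaled reads in knockout replicates 5, 7 and 8, against 1390, 1740 and 1183 in control replicates 1, 2 and 3. Amd2 was picked for its fall and Smox for its isoform shift. Genes nearest to a gene with lower knockout values are lower in knockout muscle by construction. For Amd1, the sequence it shares with Amd2 may also bring their values together, which was not tested.

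The order of levels per kilobase of exon in control muscle was Amd1 (7611 scaled reads per kilobase), Oaz1 (2038), Smox (2018), Oaz2 (1491), Odc1 (818), Sms (512), Azin1 (159), Sat1 (139), Srm (86.5) and Amd2 (52.1). Of these neighbours, Oaz1 and Smox, Smox and Oaz2, Odc1 and Sms, and Azin1 and Sat1 overlapped over the 3 control libraries. In knockout muscle the order began with Oaz1 (2493), Amd1 (2430), Oaz2 (1834), Odc1 (888) and Smox (853), so that both antizymes stood above Smox, which overlapped Odc1 (492 to 1078 for Smox and 712 to 1097 for Odc1). Amd2 was the lowest in knockout muscle too, at 12.1 per kilobase.

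Outside Smox, the splice tables held 16 rMATS events of the other members, all with enough reads, and 0 of them had an FDR under 0.05 (lowest 0.210; 1 had an unadjusted p under 0.05), where 3.44% of all rMATS events with enough reads did. In 14 of the 16, inclusion differed by less than 5 percentage points. CASH had 39 events for these genes, 0 with an FDR under 0.05 and 0 with an unadjusted p under 0.05, where 0.0465% of all CASH events had such an FDR. In Azin1 an alternative start had 4 reads and its alternative 112 in knockout, against 15 and 136 in control, a share of 3.45% in knockout and 9.93% in control.

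Of 43 other genes of polyamine metabolism, 29 were measured; 1 rose, 2 fell (Amd-ps3, described above, and Atp13a2) and 26 did not pass, with a median log2 change of -0.05, where 5.74% of all genes rose and 5.51% fell. Atp13a2, the lysosomal pump that exports polyamines to the cytosol, had 408.4, 405.0 and 385.0 scaled reads in knockout replicates 5, 7 and 8, against 596.9, 567.3 and 602.8 in control replicates 1, 2 and 3. The groups lay far apart for their spread, and it fell with a log2 change of -0.56 (SE 0.0806, limma adjusted p = 0.00652), a call that held in all 14 alternatives tried. Of 8 measured transport genes it was the only one past the threshold; the related pump Atp13a3 had a log2 change of 0.20 (adjusted p = 0.218, limma).

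Sat2, a relative of Sat1 known to prefer thialysine to polyamines, had 92.8, 86.1 and 104.7 scaled reads in knockout, against 38.7, 51.3 and 61.3 in control libraries. The groups did not overlap, and it rose to 187.5% of the control level (log2 change 0.87, SE 0.195, limma adjusted p = 0.0270). Leaving out knockout replicate 7 or 8 ended the call (limma adjusted p = 0.0619 and 0.0652), as did leaving out control replicate 1 or 2 (0.0828 and 0.0755). Paox, the oxidase that acts on acetylated polyamines, did not pass (log2 change 0.16, limma adjusted p = 0.553).

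None of the 4 genes of the hypusine pathway, in which spermidine modifies the translation factor Eif5a, passed with limma (1 at an unadjusted p under 0.05), and their median log2 change was 0.03. Eif5a had 6336, 6540 and 6633 scaled reads in knockout, against 5641, 6481 and 6448 in control libraries (log2 change 0.07, limma adjusted p = 0.579), and its groups overlapped. None of 11 measured genes of the methionine cycle and salvage passed with limma either (2 at an unadjusted p under 0.05, median log2 change -0.05). Mat2a, which makes the S-adenosylmethionine that Amd1 uses, had a log2 change of -0.31 (limma adjusted p = 0.108).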

How the data were processed

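RNA of tibialis anterior muscle, for 3 knockout and 3 control libraries, entered a directional library kit, per the labels' protocols. Tools listed in the submitters' processing notes, with no roles, are STAR 2.7.9a, RSEM 1.3.3, Trimmomatic 0.39 and FastQC 12.0, and the build is GRCm39 (mm39). The use of strand in counting is not given in the sources used here. The deposited gene table holds log2 values: log2 of a whole read count divided by a factor per library, plus 4, as the values show (100% whole within 0.001). Added 4 understates the change of low genes. The table also holds the authors' deposited log2 changes and adjusted p-values. The splice tables hold the authors' junction reads, inclusion scores, p-values and FDR, per the file headers of rMATS and CASH. For rMATS, control was sample 1 and knockout sample 2: the CASH control column equalled the sum of the 3 entries of sample 1 for 373 of 1992 exons, and the knockout column equalled the first 2 of the 3 entries of sample 2 for 549 of 2183. The order of libraries within an rMATS cell is not given.

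Tests on the deposited log2 values used limma 3.58.1 (R 4.3.3; mean-variance trend, two-sided, Benjamini-Hochberg over 14619 genes, all 6 libraries, no covariates), checked on simulated data. The plan named count-model tests, which were not run on a table of log2 values. Every pair of replicates differed by more than counting error (10.4 to 42.4 as chi-square over its degrees of freedom), and each library counts as a sample. All members are named, with pathway genes past the threshold and a few by role. Members and lists were chosen with earlier results of these data known. Coding sequences, exon lengths and overlaps come from GENCODE M21 and promoters from RefSeq (both GRCm38); no coordinate was converted. Depth limits precision. Poisson and binomial intervals on junction reads cover counting error only, and limma's intervals rest on the spread between libraries.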

Additional observations from a re-analysis of the deposited data

How the results depend on the processing

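Of all genes, 1645 were called. The count was 792 without the mean-variance trend and between 477 and 1520 when a library was left out (477, 488 and 511 without control replicates 1, 2 and 3, and 698 without knockout replicate 7). Of the 8 testable members, 2 were called, 1 with robust variance estimation and 0 without the trend (limma; 3 at an unadjusted p under 0.05 in each), and between 0 and 3 when a library was left out. Of the other pathway genes 3 were called, and between 1 and 3 when a library was left out (1 without control replicate 1 or 2). With libraries left out in turn, the log2 change of Odc1 ran from -0.16 (without control replicate 1) to 0.43 and that of Sat1 from -0.16 (without knockout replicate 8) to 0.31. The directions of Amd1, Amd2, Smox, Oaz1, Oaz2, Azin1, Srm, Sms, Sat2, Atp13a2 and Amd-ps3 were the same in all 14 alternatives (other scalings, other added constants, a filter on low values, other variance models and each library left out). Part of this was fixed in advance. Robust variance estimation and a fit with no trend leave the log2 change as it is. Leaving out a library cannot turn the direction where the groups do not overlap, which holds for all of these genes but Azin1, Srm and Sms. The median of all genes stayed between -0.0144 and 0.0076. With a minimum of 10 junction reads in place of 20, 0 rMATS events outside Smox passed. No paired analysis was possible because the groups share no replicate number. Not run were the planned count-model tests, and leaving out rMATS entries, since the deposited FDR cannot be recomputed. The cause of these changes was not tested. Depth limits Amd2 and Amd-ps3, with at most 195 reads in a library, and the lesser starts of Smox.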
